A study of Homo sapiens with 6 samples.

Results

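CTNNB1, BTRC and RSPO3 are the genes of 3 proteins of the Wnt signaling pathway. They were followed in a pooled knockout screen of HS-SY-II, a human synovial sarcoma line, by taking every guide whose target was listed as one of them. Each gene had 10 guides, so 30 guides of 3653 in the library were described, and these 3 genes stood among 348 targeted genes. Guides are named by their number in the deposited table (sgRNA_1713 and so on). The library's numbering runs in 2 blocks, called here the first and the second set. Each of the 3 genes had 5 guides in each, numbered 151 to 1045 in the first set and 1711 to 2315 in the second. No source used here says what sets the blocks apart. All 30 guides passed the filter on low counts, which used only the day 0 libraries (a mean of at least 30 counts), as did 3607 guides of the whole library. With 183 non-targeting guides, which match no gene and served as controls, the library let each gene be set against both the other targets and the controls.

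All samples came from HS-SY-II cells that stably express Cas9 and were infected with the lentiviral guide library and selected with puromycin. The groups were cells kept in culture for 14 days, tumors grown from the same infected cells under the skin of athymic nude mice and harvested at a set volume, and an aliquot frozen at day 0 after selection. Each group had 2 libraries, labeled replicates 1 and 2, and was a single cell line whose day 0 cells already carried Cas9 and a guide. The labels do not say whether the 2 tumors go back to separate infections, and a supplementary plot of the study names both as mice of the same replicate, so p-values here measure the spread between these libraries only. An exact permutation test of 2 libraries against 2 cannot go below a two-sided p of 0.333, and tests were therefore made across all guides.

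Wnt ligands act on Frizzled receptors to protect beta-catenin, the protein made from CTNNB1, from destruction, and stabilized beta-catenin enters the nucleus and activates target genes with TCF and LEF factors. R-spondin 3, from RSPO3, is a secreted protein that binds LGR receptors and holds back the ubiquitin ligases RNF43 and ZNRF3, which keeps Frizzled at the cell surface. BTRC encodes beta-TrCP, the F-box subunit of an SCF ubiquitin ligase that recognizes phosphorylated beta-catenin, among other substrates, and marks it for the proteasome. Beta-catenin also links cadherins to the cytoskeleton at cell junctions. Loss of BTRC and loss of the other 2 genes would thus act on opposite sides of beta-catenin stability in the textbook pathway. In hg38 with the GENCODE 44 annotation, CTNNB1 (ENSG00000168036.18) spans chr3:41194741-41260096, BTRC (ENSG00000166167.18) spans chr10:101354033-101557321 and RSPO3 (ENSG00000146374.14) spans chr6:127118671-127199481, all on the plus strand. The positions of the guides within these genes were not used here.

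Values are counts scaled to a common library total (CPM), after correction by the trimmed mean of M values (TMM), and log2 fold changes were fitted with the quasi-likelihood method of edgeR, with p-values adjusted by Benjamini-Hochberg over the 3607 guides. The libraries held 3394352 to 21854232 counts, with day 0 replicate 1 the deepest. The scale has a property that touches every value below: the non-targeting guides lay above 0 on it, with a median log2 fold change of 0.50 at day 14 and 0.57 in tumors against day 0. A guide near those values moved as the controls did. First set guides of all genes had medians close to the controls, at 0.41 and 0.52, whereas second set guides lay lower, at -0.57 and -0.61. Tumor libraries were less alike than cultures. The Pearson correlation of log2 CPM between replicates was 0.659 for the tumors, 0.849 for day 14 and 0.671 for day 0.

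No guide of the 3 genes passed an adjusted p of 0.05 in any comparison. In the whole library 0% of guides passed at day 14 against day 0, 1.69% in tumors against day 0 and 0.0277% in tumors against day 14. At an unadjusted p under 0.05, 1 of the 30 guides was counted at day 14 (of 303 in the library), 7 in tumors against day 0 (of 927) and 2 in tumors against day 14 (of 508). The smallest adjusted p over the 30 guides was 0.497, 0.0802 and 0.271 in these comparisons. DESeq2 on the same counts passed 0, 5 and 1 of the 30, where it passed 128, 763 and 217 of all 3607 guides. In tumors against day 0 these were the RSPO3 guides sgRNA_1043 and sgRNA_1045, the CTNNB1 guides sgRNA_318 and sgRNA_1713 and the BTRC guide sgRNA_2311. In tumors against day 14 it was sgRNA_1713. With tumor replicate 1 left out, 8 of the 30 passed in edgeR against day 0, and with tumor replicate 2 left out 7 did, where 1159 and 1152 of all guides did. Only sgRNA_2311, sgRNA_1043 and sgRNA_1045 passed both times, each in the same direction.

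The 3 genes nevertheless held different places among the targets. RSPO3 lay high in both arms, with a median over its 10 guides of 0.39 at day 14 and 0.67 in tumors against day 0 (places 325 and 323 of 348 genes counted from the lowest). BTRC lay low, with medians of -0.43 and -0.58 (places 79 and 72). CTNNB1 had a median of -0.25 at day 14 and 0.51 in tumors (places 113 and 298), and neither was stable when a library was left out. At day 14 it was -0.64 without day 14 replicate 2 and 0.15 without day 14 replicate 1, and in tumors it was -0.044 without tumor replicate 1 and 0.13 without tumor replicate 2. With libraries scaled to the total of the non-targeting guides it was -0.78 at day 14 and -0.35 in tumors. The median of those guides themselves was then -0.005 and -0.27. Without sgRNA_1713 and sgRNA_1715 the CTNNB1 median was 0.022 at day 14. The median over all genes was -0.05 at day 14 and 0.01 in tumors. Both comparisons use the same day 0 libraries, so a high or low day 0 count moves both values of a gene together.

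**Figure D1:**
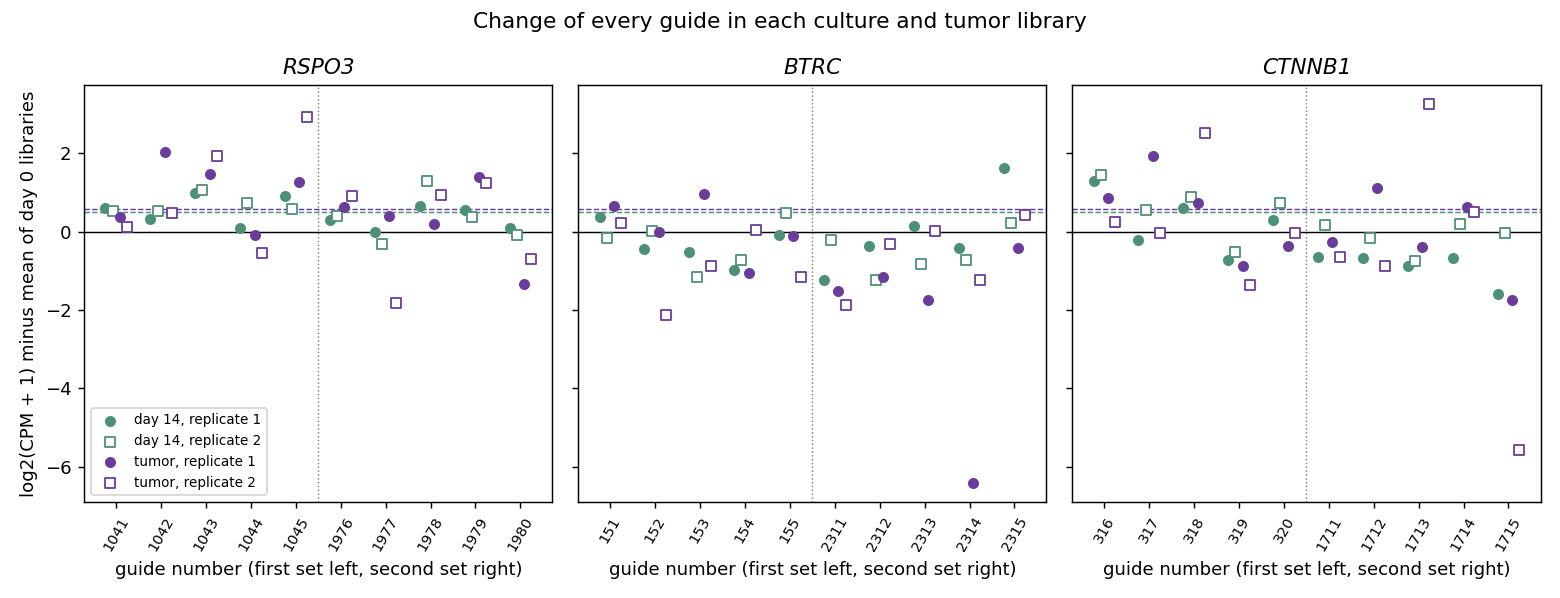
Change of each of the 30 guides in the 2 day 14 cultures (green) and the 2 tumors (purple), as log2(CPM + 1) minus the mean of the day 0 libraries. Circles are replicate 1 and squares replicate 2, dashed lines mark the median log2 fold change of the non-targeting guides (0.50 and 0.57), and the dotted line divides the first from the second set. The day 14 points of most guides lie within 1.5 log2 units of 0, while single tumor points of sgRNA_1713, sgRNA_1715 and sgRNA_2314 lie far from the other points of their guide.

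RSPO3 guides were on the whole more abundant after both arms than at day 0. At day 14, 9 of 10 guides had a log2 fold change above 0, and in tumors 7 of 10. Most controls lay above 0 too, with 9.29% of non-targeting guides below 0 at day 14 and 22.4% in tumors. Of all guides 49.5% were below 0 in each arm. The RSPO3 median minus that of the controls was -0.11 at day 14 and 0.096 in tumors. For 6 RSPO3 guides both day 14 libraries lay above both day 0 libraries, and for none below, where 27.1% of all guides lay above and 31.5% below. In tumors 5 RSPO3 guides lay above both day 0 libraries and 1 below, where 23.9% and 30.6% of all guides did.

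Among first set guides of RSPO3, sgRNA_1045 had the largest log2 fold change in tumors. It had 506 and 399 CPM at day 14, 650 and 2060 CPM in the tumors, and 239 and 301 CPM at day 0. Every culture and tumor library lay above both day 0 libraries, and tumor replicate 2 stood apart from the rest. Its log2 fold change in tumors against day 0 was 2.33 (SE 0.62, edgeR adjusted p = 0.0802), the smallest adjusted p of the 30 guides. The guide sgRNA_1043 was even between replicates, with 248 and 259 CPM at day 14, 348 and 476 CPM in the tumors and 93.5 and 165 CPM at day 0. The tumors were above the cultures and the cultures above day 0 without overlap, and the change in tumors against day 0 was 1.67 (SE 0.50, edgeR adjusted p = 0.0987). For sgRNA_1042 tumor replicate 1 was the high one, with 942 CPM there and 322 CPM in replicate 2, against 287 and 185 CPM at day 0. The most abundant of the 30 guides, sgRNA_1041, had 1701 and 1634 CPM at day 14, 1460 and 1218 CPM in the tumors and 1025 and 1230 CPM at day 0, so that cultures stood above day 0 but tumors overlapped with it. The last guide of the set, sgRNA_1044, overlapped with day 0 in both arms and had -0.35 in tumors.

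The second set guides of RSPO3 went apart in tumors. The guides sgRNA_1976 and sgRNA_1979 lay above day 0 in both tumors, with 292 and 355 CPM against 207 and 173 CPM at day 0 for sgRNA_1976, and with 469 and 419 CPM against 98.3 and 316 CPM at day 0 for sgRNA_1979. The opposite held for sgRNA_1980, with 125 and 197 CPM in the tumors against 327 and 311 CPM at day 0, a log2 fold change of -0.98 (SE 0.46, edgeR adjusted p = 0.219). In culture the same guide had 342 and 302 CPM, which straddled its day 0 values. The guide sgRNA_1977 differed between tumors, with 168 CPM in replicate 1 and 35.3 CPM in replicate 2. The median of the 5 second set guides was 0.24 at day 14 and 0.57 in tumors, places 331 and 318 of 348, against a median over genes of -0.61 and -0.62 in that set. RSPO3 thus lay at the median of the non-targeting guides in tumors and somewhat below it at day 14, in a set in which most genes lay far below it. In the first set its medians were 0.56 and 1.42 (places 219 and 287 of 299), against 0.41 and 0.52 over genes.

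BTRC guides were on the whole less abundant after both arms, with 7 of 10 log2 fold changes below 0 at day 14 and 8 of 10 in tumors. Of all guides 49.5% were below 0 in each arm. For targeting guides the shares at day 14 and in tumors were 19.3% and 29.0% in the first set, and 76.7% and 67.8% in the second. For 4 BTRC guides both day 14 libraries lay below both day 0 libraries and for none above, and the counts in tumors were the same, 4 and 0. These shares of 10 stand beside the library's 31.5% below at day 14 and 30.6% below in tumors. In each library the median change over the 10 guides was below 0, with cultures at -0.39 and -0.46, and tumors at -0.73 and -0.60.

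The second set guide sgRNA_2311 was low in both tumors. It had 145 and 296 CPM at day 14, 119 and 93.1 CPM in the tumors, and 332 and 354 CPM at day 0. All culture and tumor values were below both day 0 values, and both tumors were below both cultures. The log2 fold change in tumors against day 0 was -1.69 (SE 0.54, edgeR adjusted p = 0.111), lower than in all but 0.546% of the non-targeting guides. The guide sgRNA_2312 was also below day 0 in every library, at 63.7 and 34.2 CPM at day 14 and 36.0 and 65.6 CPM in the tumors, against 83.9 and 79.9 CPM at day 0. The guide sgRNA_2314 had 3 counts in tumor replicate 1 (95% Poisson interval 0.619 to 8.77, counting error only) and 431 counts in tumor replicate 2. Its CPM was 115 and 93.1 at day 14, 0.832 and 65.6 in the tumors and 129 and 187 at day 0. It was lower than day 0 in all 4 libraries but near loss in a single tumor, and its log2 fold change in tumors was -2.25 (SE 1.46, edgeR adjusted p = 0.361). Of the other second set guides, sgRNA_2313 had 178 and 89.4 CPM at day 14, 47.1 and 162 CPM in the tumors, and 162 and 159 CPM at day 0, so that it was low in tumor replicate 1 and, less so, in day 14 replicate 2. The rarest of the set at day 0, sgRNA_2315, overlapped with day 0 in both arms.

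First set guides of BTRC lay low for their set. Their median was -0.21 at day 14, place 6 of 299 genes, and -0.43 in tumors, place 11. The second set medians of BTRC, -0.60 and -0.69, were in contrast close to those over genes in that set, at places 176 and 164 of 348. Of the 5 first set guides 3 were below 0 in each arm. At day 14 sgRNA_154 had 167 and 201 CPM, against 404 and 269 CPM at day 0, and in tumors its values of 159 and 339 CPM overlapped with day 0. For sgRNA_155 it was the tumors that lay below, with 259 and 123 CPM there against 286 and 270 CPM at day 0, and its cultures overlapped. Tumor replicate 2 was below replicate 1 for sgRNA_152 (46.7 and 206 CPM) and for sgRNA_153 (45.5 and 167 CPM). The most abundant BTRC guide, sgRNA_151, had 840 and 619 CPM in the tumors against 460 and 620 CPM at day 0.

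**Figure D2:**
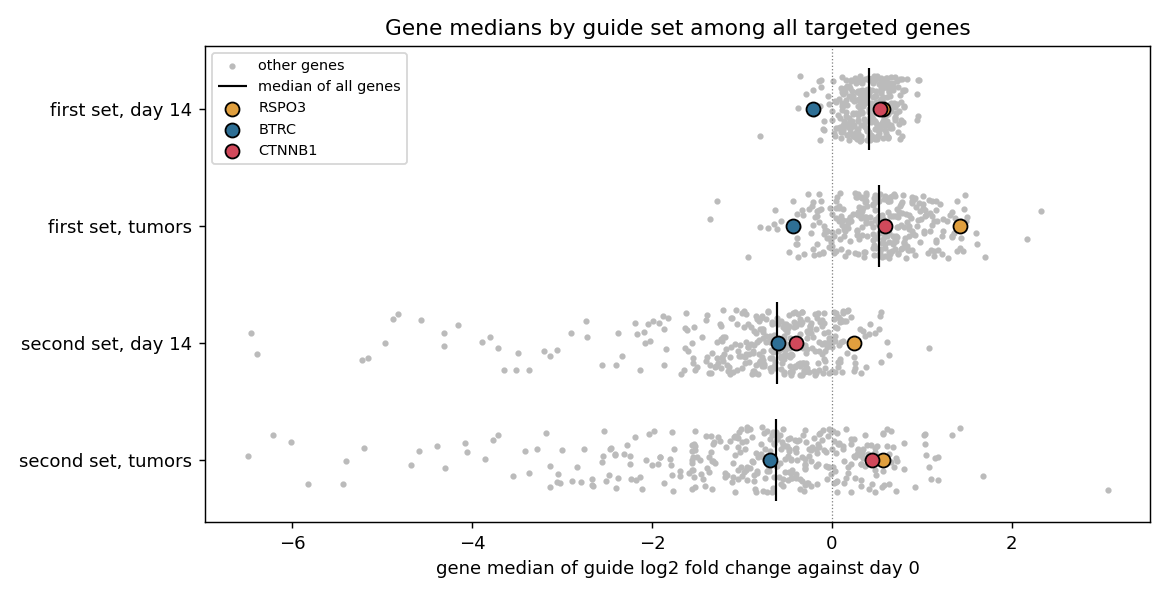
Median log2 fold change against day 0 over the guides of each gene, for the first set (299 genes) and second set (348 genes), with the cultures above the tumors within each set and grey points for the other genes. BTRC lies at the low edge of the first set (-0.21 and -0.43) and near the center of the second, and RSPO3 lies on the high side of each row.

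CTNNB1 guides were split in direction. At day 14, 6 of 10 were below 0 and 4 above, and in tumors 4 were below and 6 above. In each arm 3 guides lay below both day 0 libraries and 3 above, shares close to those of the library (31.5% below and 27.1% above at day 14, 30.6% below and 23.9% above in tumors). The range over guides in tumors was -2.85 to 2.37, and both ends came from the second set.

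The guide sgRNA_1713 had the largest value of all 30 guides in a single library. It had 125 and 135 CPM at day 14, 176 and 2214 CPM in the tumors, and 207 and 254 CPM at day 0. Both cultures and tumor replicate 1 lay below day 0, while tumor replicate 2 held 9.60 times the day 0 mean. The log2 fold change was 2.37 in tumors against day 0 (SE 0.97, edgeR adjusted p = 0.177) and 3.20 in tumors against day 14 (SE 1.00, edgeR adjusted p = 0.271). A gap between the tumors at least as large as that of this guide was found for 219 of 3607 guides (6.07%). At the other end sgRNA_1715 had 79 and 4 counts in the tumors (95% Poisson interval of the second 1.09 to 10.2), after 93 and 335 counts at day 14, and 1294 and 557 counts at day 0. On the CPM scale this was 24.3 and 74.3 at day 14, 21.9 and 0.609 in the tumors, and 52.7 and 108 at day 0. Both tumors lay below day 0, and the fold change of -2.85 had an SE of 1.60 (edgeR adjusted p = 0.295).

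The other second set guides of CTNNB1 lay closer to day 0. For sgRNA_1714 both tumors were above day 0, at 515 and 466 CPM against 313 and 350 CPM. The guide sgRNA_1712 was high in tumor replicate 1 (561 CPM) and low in replicate 2 (140 CPM), against 267 and 248 CPM at day 0. The guide sgRNA_1711 overlapped with day 0 in both arms. The median of the set was -0.40 at day 14 and 0.45 in tumors (places 221 and 309 of 348). Taken by single library, however, the median change over these 5 guides was -0.26 for tumor replicate 1 and -0.64 for tumor replicate 2. Neither tumor alone thus had a median above 0. For day 14 replicates 1 and 2 it was -0.68 and -0.026.

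In the first set of CTNNB1, sgRNA_316 was the guide with the smallest p at day 14 of all 30. It had 289 and 326 CPM at day 14, 216 and 140 CPM in the tumors, and 106 and 131 CPM at day 0. The cultures were highest, the tumors lay between, and no groups overlapped. Its log2 fold change at day 14 was 1.37 (SE 0.51, edgeR adjusted p = 0.497). The guide sgRNA_318 was above day 0 in all libraries, with 498 and 611 CPM at day 14, 543 and 1885 CPM in the tumors and 278 and 389 CPM at day 0. Here too tumor replicate 2 was the high one, and the change in tumors was 1.87 (SE 0.63, edgeR adjusted p = 0.128). The guide sgRNA_317 was high in tumor replicate 1 alone, with 882 CPM there and 224 CPM in replicate 2, against 212 and 251 CPM at day 0. In the opposite direction sgRNA_319 was below day 0 in all 4 libraries, with 221 and 254 CPM at day 14, 201 and 141 CPM in the tumors and 408 and 330 CPM at day 0. Its change in tumors was -1.11 (SE 0.46, edgeR adjusted p = 0.181). The guides sgRNA_318 and sgRNA_319, which target the same gene, thus had opposite signs in both arms. The first set median was 0.54 at day 14 and 0.59 in tumors (places 208 and 165 of 299), beside the controls.

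The high values in single tumors were read against the rest of the library. In tumor replicate 2, sgRNA_1713, sgRNA_1045 and sgRNA_318 reached at least 4 times their day 0 mean (9.60, 7.63 and 5.66 times), as did 6.35% of all guides and 15 of the 183 non-targeting guides. In tumor replicate 1 none of the 30 guides did, where 5.57% of all guides and 16 non-targeting guides did. No guide of the 3 genes reached that size at day 14 either. The median gap between the tumors was 0.85 log2 units over the 30 guides and 1.02 over all guides.

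**Figure D3:**
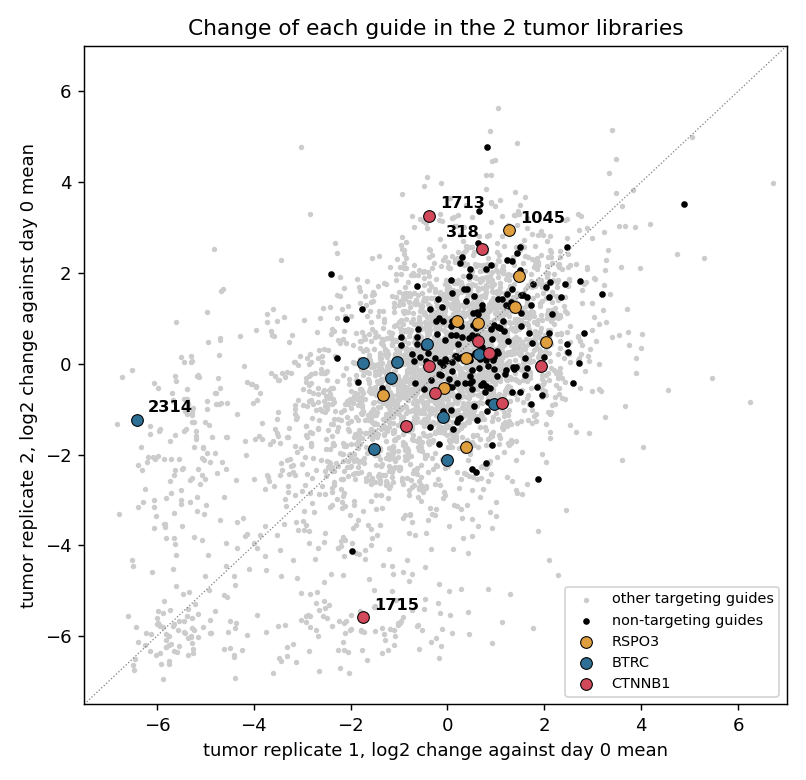
Change of every kept guide in tumor replicate 1 (horizontal) and tumor replicate 2 (vertical), as log2(CPM + 1) minus the mean of the day 0 libraries, with non-targeting guides in black and the 3 genes in color. The labeled guides sgRNA_1713, sgRNA_1715 and sgRNA_2314 lie far from the diagonal, inside the range of other guides, and non-targeting guides also reach high values in single tumors.

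Guides of 1 gene are not replicates, so their counts were summed per gene, guide set and library, and the sums of all genes (647) were tested over libraries. A sum follows its most abundant guides. For RSPO3 the first set sum was 3090 and 3164 CPM at day 14, 3708 and 4298 CPM in the tumors, and 2082 and 2120 CPM at day 0. The 3 groups did not overlap. In tumors against day 0 it rose by 0.93 on the log2 scale (SE 0.25, edgeR adjusted p = 0.0218), while 0.57 at day 14 had an adjusted p of 0.200. This call has to be set against 23.3% of all sums called higher in tumors and 10.8% called lower, and a median over all sums of 0.35. It was lost without either day 0 library (0.92 and 0.94, adjusted p = 0.195 and 0.144) or either day 14 library (0.93 each, adjusted p = 0.0799 and 0.0794), without sgRNA_1045 (0.53, adjusted p = 0.134) and when libraries were scaled to the non-targeting guides (0.078, adjusted p = 0.824). The second set sum of RSPO3 was 1124 and 1141 CPM at day 14, 1173 and 1204 CPM in the tumors and 844 and 1057 CPM at day 0, also without overlap with day 0. Its changes of 0.25 (SE 0.24) at day 14 and 0.32 (SE 0.24) in tumors did not pass (edgeR adjusted p = 0.488 and 0.309). Leaving out day 0 replicate 1 made them 0.099 and 0.17, and leaving out day 0 replicate 2 made them 0.42 and 0.49.

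For BTRC the sets differed. The first set sum was 1338 and 1317 CPM at day 14, 1631 and 1174 CPM in the tumors and 1452 and 1459 CPM at day 0. The cultures were slightly below day 0 and the tumors lay on either side of it, with changes of -0.13 and -0.05 (SE 0.26 each, edgeR adjusted p = 0.752 and 0.867). The second set sum was 614 and 554 CPM at day 14, 229 and 434 CPM in the tumors and 730 and 834 CPM at day 0. The order was day 0, then culture, then tumors, with no overlap. The change in tumors against day 0, -1.24 (SE 0.43), just missed the threshold (edgeR adjusted p = 0.0513), and that at day 14 was -0.42 (SE 0.42, adjusted p = 0.503). The change in tumors was -0.85 without tumor replicate 1 and -1.77 without replicate 2, fits in which a single tumor is assumed to vary like the other groups. It passed with scaling to the non-targeting guides, at -2.08 (edgeR adjusted p = 0.00977), as did the first set sum at -0.91 (adjusted p = 0.0272). With that scaling 208 of the 647 sums were called lower in tumors against day 0 and 6 higher, and the median over all sums was -0.51.

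For CTNNB1 the first set sum was 1578 and 2029 CPM at day 14, 2072 and 2681 CPM in the tumors and 1299 and 1405 CPM at day 0. Again no groups overlapped, and the sum rose in tumors against day 0 by 0.81 (SE 0.28, edgeR adjusted p = 0.047), with 0.42 at day 14 not passing (adjusted p = 0.344). In tumors against day 0 the median over all sums was 0.35, and 23.3% of all sums were called higher. In tumor replicate 2 sgRNA_318 alone held 1885 of the 2681 CPM, and in replicate 1 sgRNA_317 held 882 of the 2072 CPM. The sum without sgRNA_318 was not tested. The call in tumors was lost without any of the day 0 or day 14 libraries (0.76 to 0.87, adjusted p = 0.111 to 0.266), with scaling to the non-targeting guides (-0.036, adjusted p = 0.930) and without sgRNA_317 (0.70, adjusted p = 0.139). The second set sum was 672 and 1094 CPM at day 14, 1479 and 2977 CPM in the tumors, and 1227 and 1116 CPM at day 0. It lay below day 0 in both cultures and above it in both tumors. The changes were -0.41 at day 14 and 0.93 in tumors against day 0, and 1.34 in tumors against day 14 (edgeR adjusted p = 0.473, 0.0834 and 0.104). Scaled to the controls, the changes against day 0 became -0.93 at day 14 and 0.077 in tumors (edgeR adjusted p = 0.105 and 0.886). The change at day 14 was -0.80 without day 14 replicate 2 and -0.098 without day 14 replicate 1. The 1.34 became 1.75 without tumor replicate 1 and 0.74 without replicate 2. In tumor replicate 2 a single guide, sgRNA_1713, made up 74.4% of the sum. Without that guide the other 4 guides summed to 547 and 959 CPM at day 14, 1303 and 763 CPM in the tumors, and 1019 and 862 CPM at day 0, so that the tumors overlapped with day 0.

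**Figure D4:**
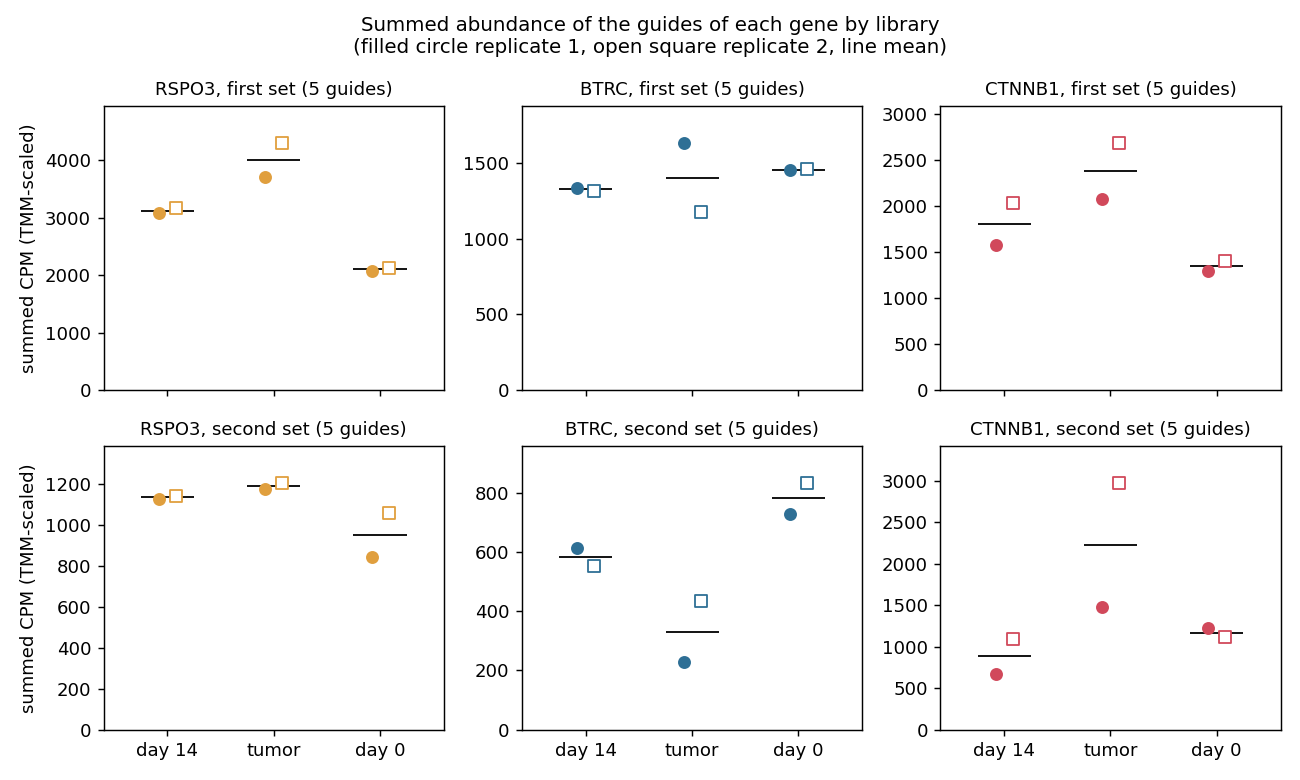
Summed CPM of the 5 guides of each gene and set in every library, with day 14, tumors and day 0 from left to right, circles for replicate 1, squares for replicate 2 and lines for the mean. The second set sum of BTRC is lowest in the tumors (229 and 434 CPM), and the second set sum of CTNNB1 is highest in tumor replicate 2 (2977 CPM).

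Tumors were also compared with the cultures directly, a comparison that does not use day 0 in its contrast. None of the 6 sums passed, where 2.63% of all sums were called higher and 0% lower (at day 14 against day 0 these shares were 0% and 2.63%). The gene median of BTRC was -0.44, place 39 of 348, and that of its second set was -1.05, place 29, but without day 14 replicate 1 the gene median was 0.094. The medians of CTNNB1 and RSPO3 were 0.24 and 0.12 (places 239 and 183), against 0.10 over genes. That of CTNNB1 was -0.47 without tumor replicate 1 and 0.72 without day 14 replicate 2.

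Whether the sets of a gene moved apart was tested with limma on the log2 ratio of the second to the first set sum, over the 299 genes with both sets. Over all targeting guides the sets moved apart too, with medians in tumors against day 0 of -0.61 in the second set and 0.52 in the first. Of the 3 genes, BTRC in tumors had the largest shift against day 0. Its log2 ratio was -1.12 and -1.25 at day 14, -2.83 and -1.43 in the tumors, and -0.99 and -0.81 at day 0. The ratio was lower in tumors than at day 0 by 1.23 (a change of -1.23, SE 0.51), with a limma adjusted p of 0.0932. Without tumor replicate 2 the change was -1.93, and without replicate 1 it was -0.54. For CTNNB1 the ratio changed by -0.85 at day 14 (SE 0.41, adjusted p = 0.159) and by 0.04 in tumors (adjusted p = 0.959). For RSPO3 the changes were -0.31 and -0.60 (adjusted p = 0.516 and 0.237). None of the 3 genes was called in any comparison, where 15.4% of genes were called at day 14, 37.5% in tumors against day 0 and 0.669% in tumors against day 14.

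Of a list of 105 Wnt pathway genes, 4 others were in the library, with 37 guides. They were ROR1, a receptor tyrosine kinase for WNT5A, DKK1 and DKK4, secreted proteins of the Dickkopf family that block the co-receptor LRP6, and CTNNBIP1 (ICAT), which keeps beta-catenin from binding TCF factors. Among their guides, 1 of DKK1 passed in tumors against day 0 (log2 fold change 3.74, edgeR adjusted p = 0.0426), where 1.69% of all guides did, and none passed at day 14. The medians in tumors against day 0 were 0.29 for DKK1, -0.03 for ROR1, -0.33 for DKK4 and -0.59 for CTNNBIP1. Of their 8 sums by set, 4 were called higher in tumors against day 0, namely both of DKK1 and the first set sums of ROR1 and CTNNBIP1, and none lower, where 23.3% of all sums were called higher and 10.8% lower. None of the 8 was called at day 14, and the second set sum of DKK1 was the 1 called higher in tumors against day 14 (1.54, edgeR adjusted p = 0.0404). The called DKK1 guide belonged to that second set. The median of the 5 guides of the set was -0.79 in tumors against day 0, with 4 guides below 0, and -0.40 in tumors against day 14.

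Over the 4 culture and tumor libraries, the genes whose median changes were closest to those of a member by Euclidean distance were C16orf74, CD274 and SPTAN1 for CTNNB1 (0.31, 0.43 and 0.44, where the median distance to the other 347 genes was 1.16). For BTRC they were SSX3, NRBP2 and RPL14 (0.14, 0.24 and 0.28, against a median of 1.26). For RSPO3 they were PRKX, CDS1 and DDX60 (0.14, 0.22 and 0.25, against 1.43). None of the 4 other Wnt genes was among these nearest genes.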

How the data were processed

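The deposited counts are whole-number reads per guide, which the authors counted with MAGeCK against their own list of guides. The submitters' processing notes name MAGeCK and hg38 with no version. The authors also deposited normalized signal values, each the count times 1 constant per library, used only as an alternative. Columns were matched to samples by name. The 3 genes and the gene lists were chosen with earlier results of these data known. Guides with a day 0 mean of at least 30 counts were kept, scaled by TMM and tested in R 4.3.3 with edgeR 4.0.16 (glmQLFTest after glmQLFit), with all 6 libraries in 1 model (common dispersion 0.303) and p-values adjusted by Benjamini-Hochberg at 0.05. The procedure was tested on simulated data. Sums per gene and guide set were tested the same way, and the ratio of sets with limma 3.58.1 after adding 1 CPM. A gene's value is the median over its guides, with no test. The study's gene-level method, robust rank aggregation, was not used. Named genes were the 3 genes, the library's other genes of a Wnt list and the 3 nearest genes of each. The main model had no replicate block. DESeq2 1.42.0 was an alternative. Plots were made with Python 3.11.15 and matplotlib 3.10.9.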

Additional observations from a re-analysis of the deposited data

How the results depend on the processing

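Scaling to the total of the non-targeting guides shifted the median over all guides to -0.50 at day 14 against day 0, -0.83 in tumors against day 0 and -0.25 in tumors against day 14, where it was 0.01, 0.02 and 0.09, and every gene shifted with it. In these 3 comparisons the median of the non-targeting guides themselves was then -0.005, -0.27 and -0.22. The gene medians became -0.94, -1.43 and -0.78 for BTRC and -0.13, -0.18 and -0.23 for RSPO3, and -0.78, -0.35 and -0.10 for CTNNB1. With that scaling 2 of the 30 guides passed in tumors against day 0 (sgRNA_2311 of BTRC and sgRNA_319 of CTNNB1), where 339 of all guides did. The sums against day 0 became -0.10 at day 14 and -0.036 in tumors (CTNNB1 first set), -0.93 at day 14 and 0.077 in tumors (CTNNB1 second set), -0.91 in tumors (BTRC first set), -2.08 in tumors (BTRC second set), 0.078 in tumors (RSPO3 first set), and -0.26 at day 14 and -0.53 in tumors (RSPO3 second set). In tumors against day 14 they became -0.26 (BTRC first set) and -0.27 (RSPO3 second set).

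DESeq2 passed 5 guides in tumors against day 0 and 1 against day 14, and gave BTRC a median of -0.38 against day 14, as median-ratio factors did (-0.38). In the whole library DESeq2 called 128 guides at day 14, 763 in tumors against day 0 and 217 in tumors against day 14. With only day 0 and tumors in the fit the BTRC median was -0.48. With the authors' normalized values and limma, the medians were -0.97, -1.20 and -0.69 for BTRC in the 3 comparisons, -0.045 and 0.16 for RSPO3 against day 0 and -0.17 for CTNNB1 in tumors against day 0. Same-numbered libraries correlated by 0.07 between day 0 and day 14, 0.001 between day 0 and tumors and 0.003 between day 14 and tumors in their deviations from the group means over guides, so the numbers were not taken to pair them. With the replicate number as a block (replicate block), 0 of the 30 guides passed in any comparison. The medians were -0.31 and 0.47 at day 14 for BTRC and RSPO3 and -0.56 for BTRC in tumors against day 14, the CTNNB1 first set sum in tumors was 0.80 and no longer passed, and the CTNNB1 second set sum passed in tumors against day 14 at 1.31. In alternatives chosen after seeing the data, the BTRC medians without sgRNA_2314 were -0.26 at day 14 and -0.36 in tumors against day 14. Sums without the guide that differed most between tumors were 0.70 (CTNNB1 first set), 0.53 (RSPO3 first set) and 0.035 (BTRC first set) in tumors against day 0, and -0.014 (RSPO3 first set) in tumors against day 14.

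With each library left out in turn, the number of the 30 guides that passed ran from 0 to 8 in tumors against day 0 (8 without tumor replicate 1, 7 without tumor replicate 2) and from 0 to 5 in tumors against day 14 (5 and 4), and it was 0 at day 14. The remaining single tumor is then assumed to vary like the other groups, and over all guides 1159 and 1152 passed in tumors against day 0. The medians ran from -0.64 to 0.15 (CTNNB1), -0.44 to -0.29 (BTRC) and 0.36 to 0.58 (RSPO3) at day 14, from -0.044 to 0.60 (CTNNB1), -0.82 to -0.48 (BTRC) and 0.46 to 0.84 (RSPO3) in tumors against day 0, and from -0.47 to 0.72 (CTNNB1) and -0.44 to 0.094 (BTRC) in tumors against day 14. The sums in tumors against day 0 ran from 0.62 to 0.99 and 0.34 to 1.35 (CTNNB1 first and second set), -0.31 to 0.16 and -1.77 to -0.85 (BTRC first and second set) and 0.82 to 1.03 and 0.17 to 0.49 (RSPO3 first and second set). The calls of the CTNNB1 and RSPO3 first set sums were lost without either day 0 or either day 14 library and kept without either tumor. In tumors against day 14 the sums ran from 0.20 to 0.59 and 0.74 to 1.75 (CTNNB1), -0.18 to 0.30 and -1.35 to -0.43 (BTRC) and 0.25 to 0.46 (RSPO3 first set), and at day 14 from 0.22 to 0.59 and -0.80 to -0.098 (CTNNB1 first and second set) and 0.56 to 0.59 and 0.099 to 0.42 (RSPO3 first and second set). The change in the ratio of sets ran from -1.02 to -0.68 at day 14, -0.28 to 0.36 in tumors against day 0 and 0.57 to 1.21 against day 14 for CTNNB1, and from -1.93 to -0.54 and -1.64 to -0.25 in the comparisons with tumors for BTRC, where it passed without tumor replicate 2. Leaving out a tumor also brought past the threshold the RSPO3 first set sum (either tumor) and the CTNNB1 first set sum (replicate 1) at day 14, the CTNNB1 second set sum (replicate 1) and the BTRC second set sum (either) in tumors against day 0, and the sums of CTNNB1 (first set, replicate 1, and second set, either), BTRC (second set, replicate 2) and RSPO3 (first set, replicate 1) in tumors against day 14, with the CTNNB1 ratio of sets at day 14 (either) and in tumors against day 14 (replicate 1).

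All 30 guides also passed a stricter filter of 100 counts at day 0, and the lowest tumor counts were 3 and 4. With either tumor left out, many more of all sums and of all guides passed in every comparison than in the main fit, tumors against day 14 included. The cause of the differences between settings was not tested.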

Other observations

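The ratio of CTNNB1 to BTRC within a library does not depend on the scaling, and it was looked at after the values above had been seen. For the second set sums the log2 ratio was 0.13 and 0.98 at day 14, 2.69 and 2.78 in the tumors, and 0.75 and 0.42 at day 0. In tumor replicate 2, sgRNA_1713 made up 74.4% of the CTNNB1 sum. Without that guide the ratio was -0.17 and 0.79 at day 14, 2.51 and 0.81 in the tumors, and 0.48 and 0.047 at day 0, so that tumor replicate 2 lay beside day 14 replicate 2. For the first set sums it was 0.24 and 0.62 at day 14, 0.35 and 1.19 in the tumors, and -0.16 and -0.05 at day 0. Here too tumors and day 0 did not overlap. In tumor replicate 2, however, sgRNA_318 held 1885 of the 2681 CPM of the CTNNB1 first set sum. The first set ratio without that guide was not computed. Taken from guide medians in place of sums, the second set ratio was 0.44 and 1.35 at day 14, 2.48 and 1.25 in the tumors, and 1.04 and 0.63 at day 0, where the tumors overlapped with the cultures. The first set ratio of guide medians was 0.78 and 0.69 at day 14, 0.16 and 0.86 in the tumors, and -0.04 and 0.18 at day 0, where the tumors overlapped with day 0. No test was made of these ratios.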
